A study of Homo sapiens with 8 samples.

Results

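ESI017 is an established human embryonic stem cell line, here driven toward a posterior neural fate, and the subject is 10 genes whose transcripts report on FGF/ERK signalling: the feedback inhibitors SPRY1, SPRY2, SPRY4, SPRED1, SPRED2, DUSP6 and IL17RD, and the ETS factors ETV1, ETV4 and ETV5. They were chosen by gene name, and all 10 names had a row among the 35940 gene symbols of the deposited table. Wild-type cells grown on Matrigel in mTeSR1 were seeded at 30000 cells per cm2 and moved to N2B27 medium with the inhibitors SB (10 µM) and LDN (100 nM). Recombinant WNT3A was given 34 h later, at 300 ng/mL by the series' design text. Poly(A) RNA was sequenced as 150 bp paired ends at 34, 42, 50 and 72 h of differentiation, which is 0, 8, 16 and 38 h after WNT3A. Each of the 4 time points has 2 libraries, replicate 1 and replicate 2, and each replicate number is also a batch number, so a batch holds 1 library of every time point. All groups share SB, LDN and the planned WNT3A; whether the 34 h cells were taken just before or just after the addition is not given in the sources used here. Cells left without WNT3A were not analysed here, so elapsed time and WNT3A cannot be told apart in any comparison.

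Fibroblast growth factors bind receptor tyrosine kinases and, through RAS, RAF and MEK, switch on the kinase ERK. ERK activity raises transcripts of ETS factors of the PEA3 family and of the pathway's own inhibitors, which act at the receptor (IL17RD), on RAS and RAF (Sprouty and Spred proteins) and on ERK itself (the phosphatase DUSP6). In human embryonic stem cells FGF/ERK signalling supports the pluripotent state, and in the embryo it takes part in neural induction and in the patterning of the posterior neural tube.

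Levels are in TPM, a unit of relative transcript abundance that corrects for gene length and so lets genes be set side by side, but the number of reads behind a value is unknown. Changes are differences of log2(TPM + 1), which understate the change of genes at low values, and were tested with limma over 14908 genes with Benjamini-Hochberg adjustment. A change was called at an adjusted p under 0.05. The labels do not say whether the 2 libraries came from separate cultures, so p-values measure the spread between these libraries, which may be technical. Each library had 13860 to 14004 genes at 1 TPM or more. The pluripotency markers (7 genes, all with a row) summed to 3530 to 3550 TPM at 34 h and 1910 to 2020 TPM at 72 h, the neural progenitor markers (5 genes) to 346 to 363 and then 604 to 644 TPM, and the caudal progenitor markers (5 genes) to 23.6 to 26.9 TPM (34 h), 151 to 172 TPM (42 h) and 67.3 to 75.5 TPM (72 h). Within these sums the genes moved apart. POU5F1 (1170 and 1150 TPM, then 354 and 388 TPM) and TDGF1 (743 and 785 TPM, then 2.94 and 6.13 TPM) were lower at 72 h than at 34 h, as were NANOG, DPPA4 and ZFP42. SOX2, counted in both the pluripotency and the neural list, had 224 and 211 TPM and then 348 and 333 TPM. LIN28A, also on the pluripotency list, had 908 and 897 TPM and then 1080 and 970 TPM. Of the caudal sum at 72 h, WNT8A made up most, with 49.4 and 45.8 TPM, while NKX1-2 was back at 15.9 and 25.6 TPM. MSGN1 of mesoderm and SOX17 of endoderm were listed at 0 in all 8 libraries, but FOXA2, also on the endoderm list (5 genes), had 11.9 and 13.4 TPM (34 h) and 0.575 and 0.866 TPM (72 h). Of the neural markers, SOX1 had 1.63 and 2.14 TPM (34 h) and 56.5 and 45.2 TPM (72 h), and HES5 stayed under 1 TPM. These cell type markers moved over the same hours as the genes below, and their part in each change was not tested.

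Of the 10 genes, 6 fell between 34 h and 72 h: SPRY1, SPRY4, DUSP6, ETV1, ETV4 and ETV5, where 24% of all genes tested were called and 11.3% were called lower. Without 34 h replicate 2 or 72 h replicate 1 the count was 3, SPRY1, SPRY4 and ETV4. In the fit of all libraries the 6 fell to between 21.5% and 56.5% of their 34 h mean TPM. None of the 10 was called higher than at an earlier time in any of the 5 comparisons. SPRY2, SPRED1, SPRED2 and IL17RD were not called in any comparison. In bulk RNA, fewer cells with a transcript and less transcript per cell cannot be told apart.

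**Figure D1:**
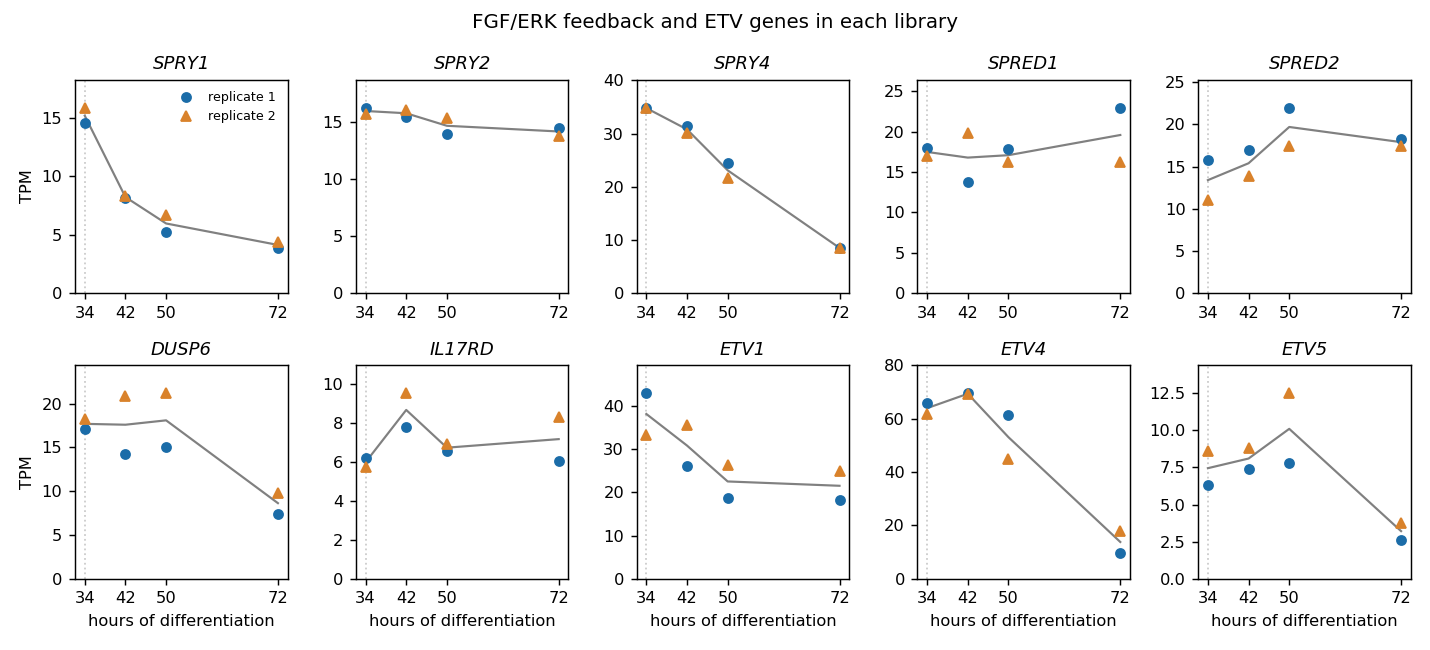
TPM (y axis, from 0, a scale of its own in each panel) of the 10 genes against hours of differentiation (x axis); circles are replicate 1, triangles replicate 2, the line joins the means and the dotted line marks WNT3A addition at 34 h. SPRY1 falls from 14.6 and 15.9 TPM to 8.16 and 8.29 TPM by 42 h, whereas DUSP6, ETV4 and ETV5 have their low values at 72 h.

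The Sprouty proteins restrain RAS and RAF downstream of the FGF receptor. SPRY1 lies on chromosome 4 (123396795 to 123403760, plus strand), SPRY2 on chromosome 13 (80335976 to 80340951, minus strand) and SPRY4 on chromosome 5 (142310427 to 142326455, minus strand), by GENCODE release 29 on GRCh38. SPRY4 overlaps the antisense gene SPRY4-AS1, and whether reads were assigned by strand is not given in the sources used here. Because these paralogs differed in their course, the 250 bases before a RefSeq start of each (GRCh38.p14) are shown, the most upstream in the table used, 5′ to 3′ on the gene's strand, with GGAA, the core of ETS sites, and its reverse complement TTCC in capitals.
SPRY1, chr4:123396545-123396794, plus strand: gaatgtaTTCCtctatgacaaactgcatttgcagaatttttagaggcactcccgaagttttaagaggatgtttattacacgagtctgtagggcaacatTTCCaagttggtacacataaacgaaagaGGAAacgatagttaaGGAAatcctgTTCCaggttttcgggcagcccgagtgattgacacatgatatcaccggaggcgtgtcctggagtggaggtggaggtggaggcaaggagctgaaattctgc
SPRY2, chr13:80341127-80341376, minus strand: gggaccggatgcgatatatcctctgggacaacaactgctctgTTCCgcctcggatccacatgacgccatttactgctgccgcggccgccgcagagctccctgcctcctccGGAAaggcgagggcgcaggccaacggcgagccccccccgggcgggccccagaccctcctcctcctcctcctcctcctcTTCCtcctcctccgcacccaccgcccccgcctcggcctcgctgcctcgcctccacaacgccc
SPRY4, chr5:142324248-142324497, minus strand: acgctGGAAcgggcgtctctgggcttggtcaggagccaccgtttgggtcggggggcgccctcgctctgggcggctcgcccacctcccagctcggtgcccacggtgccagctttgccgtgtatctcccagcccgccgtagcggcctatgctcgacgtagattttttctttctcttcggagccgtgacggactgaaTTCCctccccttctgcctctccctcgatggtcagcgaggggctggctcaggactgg
The SPRY1 window holds 5 matches to the ETS core, the SPRY2 window 3 and the SPRY4 window 2, and the median over all 35116 windows of that length is 3. GC content is 45.6% for SPRY1, 70.4% for SPRY2 and 65.6% for SPRY4, with 8, 23 and 22 CpG dinucleotides, against medians of 58% and 11. These contrasts hold for the starts shown only: the window before the second SPRY1 start has 68% GC and 24 CpG, and the other SPRY2 windows have 62.4% and 41.2% GC, and 4 core matches each. The SPRY2 window lies upstream of the GENCODE gene, and the bases after its start were not found in a GENCODE transcript of SPRY2. The SPRY4 window lies inside the GENCODE gene, which reaches further upstream, and overlaps an exon of a SPRY4 transcript without a coding region.

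SPRY1 had, in replicates 1 and 2, 14.6 and 15.9 TPM (34 h), 8.16 and 8.29 TPM (42 h), 5.26 and 6.67 TPM (50 h) and 3.87 and 4.39 TPM (72 h). Every library of a later time point lay below every library of an earlier one. The fall was already called at 42 h, 8 h after WNT3A (log2 change -0.81 ± 0.16 SE, limma adjusted p 0.043, within replicates -0.77 and -0.86), and it reached -1.23 at 50 h (limma adjusted p 0.0038) and -1.66 at 72 h (limma adjusted p 2.792e-04), where mean TPM was 3.69-fold lower than at 34 h. The steps from 42 to 50 h (-0.41, limma adjusted p 0.482) and from 50 to 72 h (-0.44, limma adjusted p 0.162) were not called. The 42 h call was lost in 10 of 18 alternative settings, with an adjusted p of 0.0703 to 0.264 when any 1 library of 34, 42 or 72 h was left out.

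SPRY4 had 34.8 and 34.9 TPM (34 h), 31.5 and 30.1 TPM (42 h), 24.4 and 21.7 TPM (50 h) and 8.55 and 8.47 TPM (72 h). Its libraries did not overlap between any time points, as for SPRY1, but most of the difference lay between 50 and 72 h, the longest interval. Against 34 h the 42 h change was -0.17 (limma adjusted p 0.617), the 50 h change -0.58 (limma adjusted p 0.024) and the 72 h change -1.91 ± 0.12 (limma adjusted p 2.114e-05), a mean 4.09-fold lower. From 50 to 72 h alone it fell by 1.34 (limma adjusted p 5.924e-04). The 50 h call did not hold when a 34 h or 50 h library was left out (adjusted p 0.0562 to 0.13) or when those time points were fitted alone (0.0984). The 72 h call held in all 18 alternatives.

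SPRY2 had 16.3 and 15.7 TPM (34 h), 15.5 and 16.1 TPM (42 h), 14 and 15.4 TPM (50 h) and 14.5 and 13.8 TPM (72 h). All 8 libraries thus lay between 13.8 and 16.3 TPM. The 72 h change against 34 h was -0.16 with a 95% interval from -0.45 to 0.12 (limma adjusted p 0.378), which does not reach the -1.66 of SPRY1 or the -1.91 of SPRY4.

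The make-up of the family changed with these levels. The summed TPM of the 3 Sprouty genes was 65.6 and 66.4 at 34 h and 27 and 26.7 at 72 h. SPRY4 held 53% and 52.5% of the sum at 34 h and 31.7% and 31.8% at 72 h. SPRY1 held 22.3% and 23.9% at 34 h and 14.3% and 16.5% at 72 h. SPRY2, at a nearly even level, held 24.8% and 23.6% at 34 h and 53.9% and 51.8% at 72 h, so the leading Sprouty transcript was SPRY4 at 34 h and SPRY2 at 72 h.

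**Figure D2:**
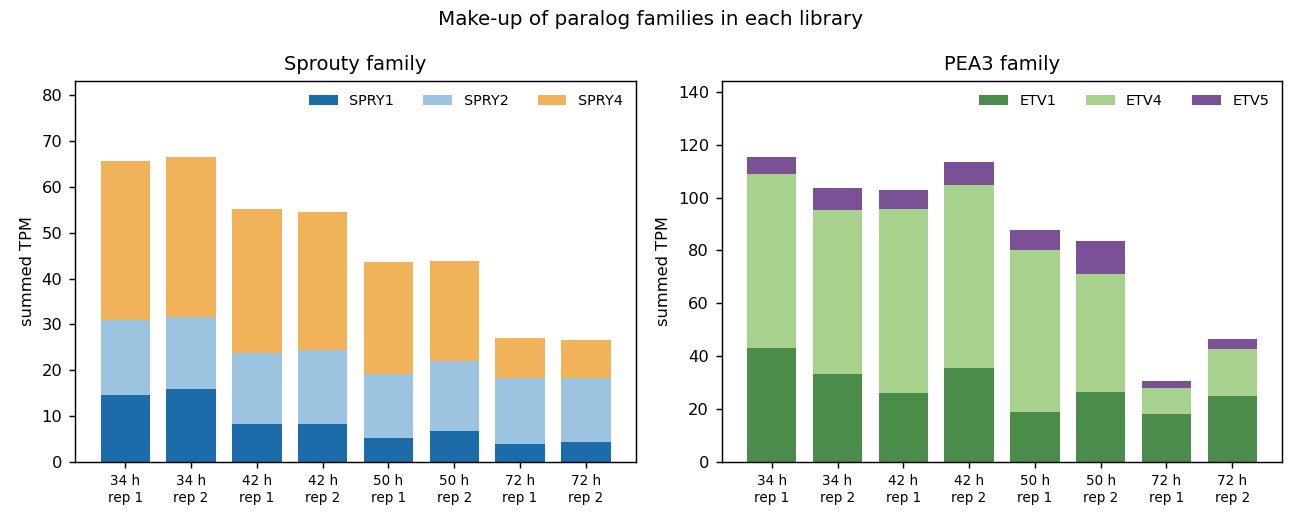
Stacked bars of summed TPM (y axis, from 0) for the Sprouty genes (left) and the PEA3 genes (right) in each of the 8 libraries (x axis). The Sprouty sum goes from 65.6 and 66.4 TPM at 34 h to 27 and 26.7 TPM at 72 h while the SPRY2 segment stays between 13.8 and 16.3 TPM; in the PEA3 panel the ETV4 segment leads up to 50 h and the ETV1 segment at 72 h.

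SPRED1 and SPRED2 are membrane-bound relatives of the Sproutys that bring neurofibromin, a RAS inactivator, to the membrane. SPRED1 (chromosome 15, 38252326 to 38357249, plus strand) had 18 and 17 TPM (34 h), 13.8 and 19.8 TPM (42 h), 17.9 and 16.3 TPM (50 h) and 23 and 16.3 TPM (72 h). Its replicates differed as much at 42 and 72 h as the time points did, and the groups overlapped in all 5 comparisons (72 h against 34 h 0.14, 95% interval -0.34 to 0.61, limma adjusted p 0.678). SPRED2 (chromosome 2, 65310851 to 65432637, minus strand; it overlaps AC012370.1) had 15.8 and 11.1 TPM (34 h), 17 and 13.9 TPM (42 h), 22 and 17.4 TPM (50 h) and 18.3 and 17.5 TPM (72 h). Both 50 h and both 72 h libraries lay above both 34 h libraries. Neither difference was called: 0.53 at 50 h (95% interval 0.08 to 0.98, limma adjusted p 0.173) and 0.41 at 72 h (-0.04 to 0.86, limma adjusted p 0.169). With 1 library left out these values ranged from 0.29 to 0.77 and from 0.17 to 0.65, both lowest without 34 h replicate 2. SPRED2 was the only one of the 10 genes with replicate 1 above replicate 2 at all 4 time points.

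IL17RD, also called SEF, is a transmembrane protein that dampens signalling at the FGF receptor and beyond. It lies on chromosome 3 (57089982 to 57170306, minus strand) and overlaps AC097358.1 on the other strand. It had 6.22 and 5.76 TPM (34 h), 7.82 and 9.54 TPM (42 h), 6.56 and 6.92 TPM (50 h) and 6.03 and 8.32 TPM (72 h). The 42 h libraries lay above both 34 h libraries, with a change of 0.46 (95% interval 0.03 to 0.90) that was not called (limma p 0.0375, adjusted p 0.316). At 72 h the groups overlapped with 34 h (0.21, limma adjusted p 0.451).

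DUSP6 encodes the cytoplasmic phosphatase that removes phosphate from ERK and is among the most used transcript readouts of ERK activity. It lies on chromosome 12 (89347232 to 89353271, minus strand) and overlaps AC024909.2 on the other strand. DUSP6 had 17.1 and 18.3 TPM (34 h), 14.3 and 20.9 TPM (42 h), 15.1 and 21.2 TPM (50 h) and 7.45 and 9.82 TPM (72 h). The 72 h libraries lay below all 6 others, and the 6 others overlapped. Set against 34 h, the 42 h value was -0.03 and the 50 h value 0.02 (0.00 to -0.05 under 3 other scalings), neither called. At 72 h DUSP6 was lower by a log2 change of -0.96 ± 0.23 (limma adjusted p 0.0185, 2.04-fold lower, within replicates -1.10 and -0.83). Between 50 and 72 h it was -0.98 (limma adjusted p 0.0391). The 72 h call against 34 h was lost without 34 h replicate 1 (adjusted p 0.0653), 34 h replicate 2 (0.0909) or 72 h replicate 1 (0.111). The call against 50 h was lost in 9 of 18 alternatives (0.0651 to 0.215 without a 34 h library, 50 h replicate 2 or a 72 h library).

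ETV1, ETV4 and ETV5 make up the PEA3 family of ETS transcription factors, which carry FGF signals to the genome and are themselves transcribed in response to ERK. ETV4 (chromosome 17, 43527844 to 43579620, minus strand; it overlaps DHX8 on the other strand) was the highest of the 10 genes at 34, 42 and 50 h. It had 66.1 and 61.9 TPM (34 h), 69.6 and 69.2 TPM (42 h), 61.4 and 44.8 TPM (50 h) and 9.66 and 17.9 TPM (72 h). The 72 h libraries lay far below all others, but were also the least alike of the 4 pairs on the log2 scale, and the fall against 34 h was -2.65 within replicate 1 and -1.73 within replicate 2. Neither the 42 h value (0.12, limma adjusted p 0.918) nor the 50 h value (-0.28, limma adjusted p 0.59) was called against 34 h. The 72 h change was -2.19 ± 0.25 (limma adjusted p 6.361e-04), a mean 4.64-fold lower and the greatest fall among the 10 genes. From 50 to 72 h ETV4 fell by 1.91 (limma adjusted p 0.00375, but 0.0563 with those 2 time points fitted alone).

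ETV5 (chromosome 3, 186046308 to 186110318, minus strand; it overlaps DGKG and ETV5-AS1) had 6.31 and 8.59 TPM (34 h), 7.42 and 8.78 TPM (42 h), 7.79 and 12.5 TPM (50 h) and 2.64 and 3.79 TPM (72 h). Replicate 2 was above replicate 1 at every time point, as it was for SPRY1 and DUSP6, and only the 72 h libraries stood apart from all others. The 50 h value against 34 h was 0.38 (limma adjusted p 0.466). At 72 h ETV5 was lower than at 34 h, with a log2 change of -1.0 ± 0.26 (95% interval -1.60 to -0.41, limma adjusted p 0.025) and lower than at 50 h, with a change of -1.38 (limma adjusted p 0.0166). Without 72 h replicate 1 neither call held (adjusted p 0.138 and 0.118), nor did the first without 34 h replicate 2 (0.142) or the second without 50 h replicate 2 (0.0878).

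ETV1 (chromosome 7, 13891228 to 13991425, minus strand) had 42.9 and 33.3 TPM (34 h), 26 and 35.6 TPM (42 h), 18.7 and 26.3 TPM (50 h) and 18.1 and 24.9 TPM (72 h). The 50 h and 72 h libraries lay below both 34 h libraries and overlapped each other. The change was -0.74 at 50 h (limma adjusted p 0.119) and -0.80 ± 0.24 at 72 h (limma adjusted p 0.0419, within replicates -1.20 and -0.40). That call is marginal: the F-test over all time points did not call ETV1 (limma adjusted p 0.106), and the 72 h call did not hold when a 34 h or 72 h library was left out (adjusted p 0.0518 to 0.215). ETV1 was at -0.06 between 50 and 72 h (95% interval -0.60 to 0.48), the step in which ETV4 and ETV5 fell. ETV4 held 57.3% and 59.7% of the summed PEA3 TPM at 34 h and 31.8% and 38.4% at 72 h, when ETV1 held 59.5% and 53.5%.

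Counted over the 10 genes, 1 was called at 42 h against 34 h (SPRY1), beside 2.58% of all genes tested. It was lower, as were 0.792% of all genes; 0 of the 10 were higher, beside 1.78%. At 50 h 2 were called (SPRY1 and SPRY4), beside 6.26% of all genes; both were lower, beside 2.74%, and 0 higher, beside 3.52%. At 72 h 6 were called, beside 24% of all genes; all 6 were lower, beside 11.3%, and 0 higher, beside 12.7%. The 42 h count was 0 without any 1 library of 34, 42 or 72 h, the 50 h count 1 without any 1 library of 34 or 50 h, and the 72 h count 3 without 34 h replicate 2 or 72 h replicate 1.

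Between 42 and 50 h 0 of the 10 were called by limma, with 2 at an unadjusted p under 0.05; of all genes 0.0939% were called (0.0604% higher, 0.0335% lower) and 1394 had such a p. Between 50 and 72 h 4 were called (SPRY4, DUSP6, ETV4 and ETV5), beside 7.33% of all genes; all 4 were lower, beside 4.41%, and 0 higher, beside 2.92%. Without 50 h replicate 2 or 72 h replicate 1 this count was 2. The F-test over the 3 comparisons with 34 h called 5 (all of the 6 but ETV1), beside 17.4% of all genes.

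The median log2 change of the 10 genes from 34 h was -0.02 (42 h), -0.08 (50 h) and -0.88 (72 h), where the medians of all genes tested were 0.01, 0.04 and 0.06. From 50 to 72 h it was -0.28 against 0.01. The pairs of libraries did not overlap for 4 of the 10 genes (42 h), 7 (50 h) and 8 (72 h) when set against 34 h, beside 42.4%, 48.4% and 64.6% of all genes. Between 42 and 50 h they did not overlap for 6 (37.3% of all genes) and between 50 and 72 h for 5 (51.7%). The comparisons with 34 h share the 34 h libraries.

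**Figure D3:**
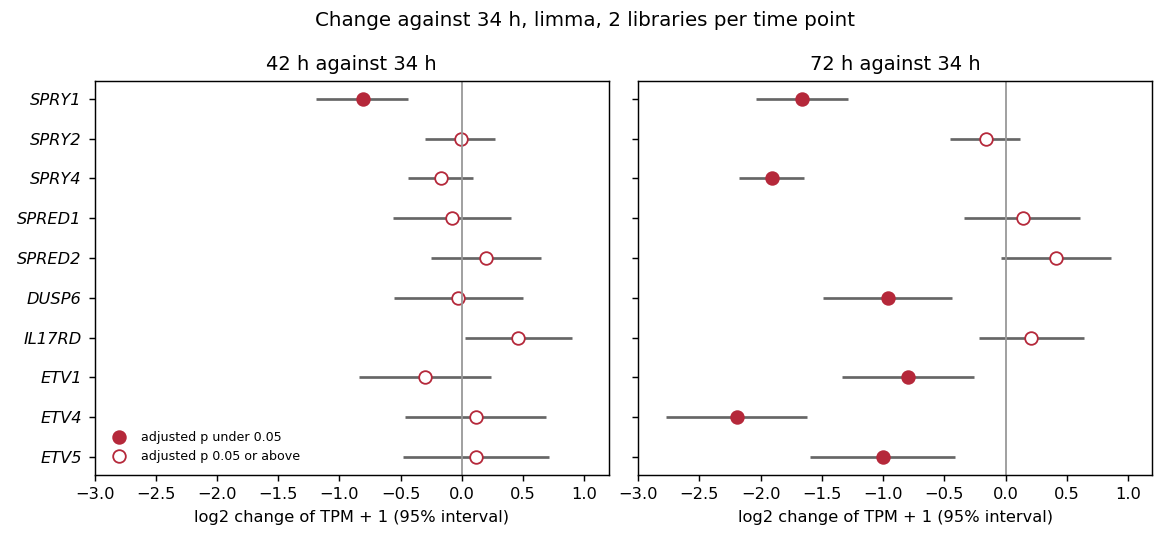
Log2 change of TPM + 1 against 34 h (x axis) of each of the 10 genes (y axis) at 42 h (left) and 72 h (right), as limma estimates with 95% intervals; filled points have an adjusted p under 0.05. A single point is filled at 42 h, SPRY1 at -0.81, and 6 are filled at 72 h, from ETV1 at -0.80 to ETV4 at -2.19.

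The order of the 10 levels changed with time. At 34 h ETV4 led with a mean of 64 TPM, followed by ETV1 (38.1 TPM) and SPRY4 (34.8 TPM), whose ranges overlapped; DUSP6, SPRED1, SPRY2, SPRY1 and SPRED2 lay between 17.7 and 13.4 TPM, and ETV5 (7.45 TPM) and IL17RD (5.99 TPM) were lowest. At 72 h ETV1 (21.5 TPM) led without standing apart from SPRED1 (19.6 TPM), and SPRED2 (17.9 TPM) and SPRY2 (14.2 TPM) came next. ETV4 was then at 13.8 TPM, not apart from its neighbours SPRY2 and DUSP6 (8.64 TPM), and SPRY1 (4.13 TPM) and ETV5 (3.21 TPM) were lowest. The summed TPM of the 10 genes was 238 and 222 at 34 h and 112 and 125 at 72 h.

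The 10 genes differed in how closely their replicates agreed. The standard deviation between replicates on the log2 scale was 0.0572 for SPRY2 and 0.0601 for SPRY4, against 0.169 for the median gene, 0.226 for SPRED2 and 0.333 for ETV4. A difference of 0.53 in SPRED2 at 50 h was not called, while one of -0.58 in SPRY4 was.

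The genes most like each of the 5 genes called by the F-test were taken as those with the smallest root mean square difference between log2 profiles centred on their mean, over 8 libraries and 14907 other genes. For SPRY1 they were NFE2L3 (0.094), PLAU (0.12), the urokinase plasminogen activator, and PFKP (0.133), a phosphofructokinase. PLAU, with 23.2 and 21.5 TPM (34 h) and 10.3 and 11.3 TPM (42 h), had its largest step between the same time points as SPRY1. For SPRY4 they included SEPHS1 (0.0945), a selenophosphate synthetase, and PCK2 (0.117). SEPHS1 had 326 and 321 TPM (34 h), 199 and 225 TPM (50 h) and 83.2 and 83.6 TPM (72 h).

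For ETV4 the nearest profiles were those of ZSCAN10 (0.179), a zinc finger factor of pluripotent cells, PYCARD (0.184) and ESRP2 (0.207), an epithelial splicing regulator. ZSCAN10 had 190 and 151 TPM (34 h) and 33.3 and 41.7 TPM (72 h). For DUSP6 they were SLC15A2 (0.118), CBWD4P (0.12) and FABP3 (0.137), and for ETV5 ARNTL (0.173), PATJ (0.174) and KCNMA1 (0.18). Among the 10 genes, DUSP6 was the 4th nearest of all genes to ETV5 (0.194), ETV5 the 29th nearest to DUSP6 and SPRY4 the 37th nearest to ETV4 (0.326). The rank depends on the gene it is counted from: ETV5 was the 407th and DUSP6 the 458th nearest to ETV4, whereas ETV4 was the 6012th nearest to ETV5 and the 10389th to DUSP6. The profiles share their libraries and batches, so these ranks describe the 8 libraries only.

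A published score of MAPK pathway activity, derived in cancer cells, sums 10 transcripts, of which SPRY2, SPRY4, DUSP6, ETV4 and ETV5 are among the genes above. The other 5 did not move one way. PHLDA1 had 55 and 50.2 TPM (34 h), 32 and 28.5 TPM (42 h), 22.6 and 21.4 TPM (50 h) and 7.52 and 7.88 TPM (72 h), a change of -2.62 by 72 h (limma adjusted p 6.878e-06). DUSP4, a nuclear ERK phosphatase, fell by 0.97 (limma adjusted p 0.00541), close to the -0.96 of DUSP6. CCND1, which encodes cyclin D1 and is also a known WNT target, had 88.8 and 65.5 TPM (34 h), 301 and 246 TPM (42 h) and 297 and 302 TPM (72 h), both later changes being called (1.82 and 1.96, limma adjusted p 0.00143 and 1.912e-04). The ephrin receptors EPHA2 (0.98, limma adjusted p 0.0024) and EPHA4 (3.67, limma adjusted p 7.120e-06) were also higher at 72 h, EPHA4 going from 8.89 and 5.93 TPM to 107 and 103 TPM.

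**Figure D4:**
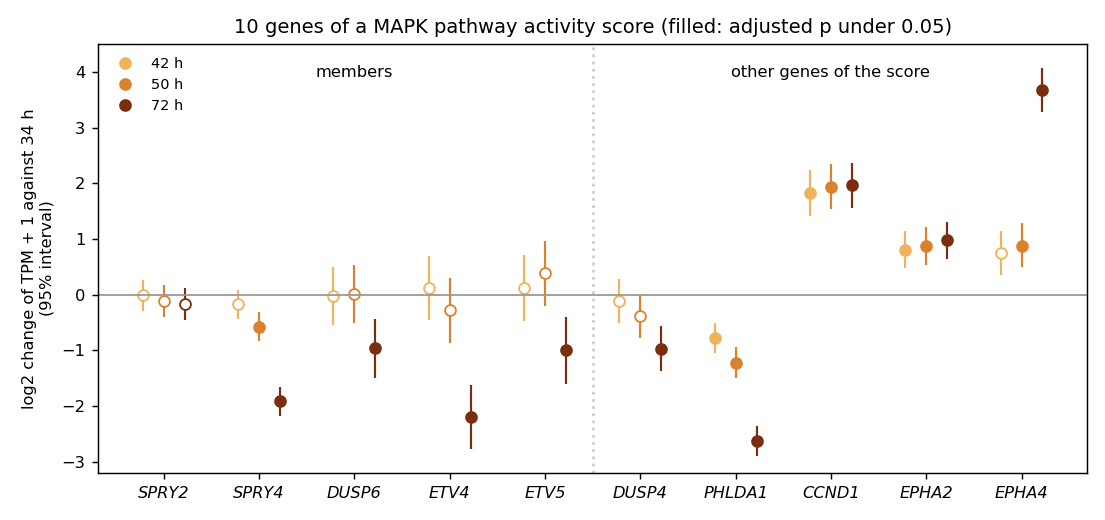
Log2 change of TPM + 1 against 34 h (y axis) with 95% intervals for the 10 transcripts of the MAPK activity score (x axis), at 42, 50 and 72 h from light to dark; filled points have an adjusted p under 0.05. At 72 h SPRY4, DUSP6, ETV4, ETV5, DUSP4 and PHLDA1 lie below 0, CCND1, EPHA2 and EPHA4 above 0, and SPRY2 has an interval that holds 0.

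Around the 10 genes, 102 other genes of the pathway in 8 lists were looked up, of which 83 were tested. At 42 h against 34 h 7 were called (5 higher, 2 lower), beside 2.58% of all genes (1.78% higher, 0.792% lower). At 50 h 10 were called (5 and 5), beside 6.26% (3.52% and 2.74%). At 72 h 31 were called (11 and 20), beside 24% (12.7% and 11.3%). With 1 library left out these counts went down to 2, 5 and 20. Between 42 and 50 h 0 were called by limma (0.0939% of all genes). Between 50 and 72 h 11 were called (4 higher, 7 lower), beside 7.33% of all genes (2.92% higher, 4.41% lower). Of the other MAPK phosphatases 8 were tested. At 72 h 4 were lower (11.3% of all genes were) and 0 higher (12.7%). The 4 were DUSP8 (-1.76), DUSP5 (-1.41), DUSP2 (-0.96) and DUSP16 (-0.68). DUSP5, another ERK phosphatase, had 18 and 17.8 TPM (34 h), 34.2 and 31.2 TPM (42 h) and 6.43 and 5.77 TPM (72 h), so it was higher at 42 h (0.83, limma adjusted p 0.0112) while DUSP6 was not (-0.03, 95% interval -0.55 to 0.50); the difference between the 2 genes was not tested. The 42 h call of DUSP5 did not hold when a 34 h or 42 h library was left out (adjusted p 0.0605 to 0.095). The DUSP2 call at 50 h (-0.90) held in 6 of 17 alternatives: it was lost whichever library was left out (adjusted p 0.0653 to 0.206), with the replicate number as a block (0.0602), with a pseudocount of 0.1 (0.0524) and with those time points alone (0.0984). Its 72 h call was lost without a 34 h library or 72 h replicate 1 (0.0583 to 0.0804). The 72 h call of DUSP16 was lost without 34 h replicate 1 or a 72 h library (0.0534 to 0.0681), and that of DUSP8 with Ensembl rows kept apart (0.0824).

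Of the genes listed as other negative regulators, 11 were tested and 4 called at 72 h, 2 in each direction, beside 24% of all genes (12.7% higher and 11.3% lower); 1 of the 4 is not an inhibitor. FLRT3, a membrane protein known in frog embryos to promote rather than limit FGF signalling, was higher (2.09, limma adjusted p 0.00107), from 0.885 and 1.01 TPM to 6.67 and 7.98 TPM, and RASA1, a RAS inactivator, was higher by 0.36, a call lost in 9 of 18 alternatives (adjusted p 0.0561 to 0.144 without a library of 34, 42 or 72 h). ERRFI1, an inhibitor of EGF receptors (-0.81), and PEBP1, an inhibitor of RAF (-0.45), were lower. Of the immediate early genes 13 were tested. At 42 and 50 h 0 were called, beside 2.58% and 6.26% of all genes. At 72 h 5 were lower (11.3% of all genes were) and 2 higher (12.7%). The lower calls of IER2 (-0.82) and ZFP36 (-0.68) were both lost without 34 h replicate 1 (adjusted p 0.105 and 0.0577) or 72 h replicate 1 (0.109 and 0.138), and that of ZFP36 also without either other library of those times (0.0972 and 0.173). JUN (-1.06) and MYC (-0.88) were lower, and EGR2 (4.46) and BTG2 (1.52) higher. EGR2, also a factor of the hindbrain, had 0.57 and 1.49 TPM (34 h) and 46.9 and 38.7 TPM (72 h). EGR1, an immediate early gene commonly read with DUSP6, was not called (-0.64, limma adjusted p 0.119).

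Of 22 genes of the FGF family, not all of them secreted ligands, 11 were tested. FGF18 had 0.664 and 0.434 TPM (34 h) and 8.53 and 5.72 TPM (42 h), up by 2.37 (limma adjusted p 0.00143). By 72 h it was back at 0.956 and 1.21 TPM, a change of -1.54 from 50 h (limma adjusted p 0.00725) that was not called without 72 h replicate 1 (0.0645). FGF19 went from 4 and 2.87 TPM to 11.6 and 10.3 TPM (1.44, limma adjusted p 0.00813), at a time when SPRY1 was lower and the other 9 genes were not called. The FGF19 call was lost without 34 h replicate 2 or either 42 h library (adjusted p 0.0533 to 0.0735). At 72 h 3 ligands were called against 34 h, 1 higher and 2 lower, beside 24% of all genes (12.7% higher and 11.3% lower). FGF3, listed at 0 in both 34 h libraries and at 2.18 and 1.52 TPM at 72 h, was higher (limma adjusted p 0.023, but 0.0684 to 0.128 without a library of either time). By then FGF19 was lower than at 34 h (-1.12), as was FGF2, the factor of stem cell culture media, which went from 67.7 and 45.8 TPM to 18.1 and 17.8 TPM (-1.58, limma adjusted p 0.00393). FGF8 was not called in any comparison (0.42 at 72 h, limma adjusted p 0.21).

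Of the FGF receptors and coreceptors 5 were tested. FGFR3 rose from 23.8 and 17 TPM (34 h) to 161 and 141 TPM (72 h; 2.84, limma adjusted p 4.732e-05), and FGFR1, the most abundant receptor, was at 614 and 589 TPM and 703 and 743 TPM, a call (0.26) lost in 10 of 18 alternatives, TMM rescaling (adjusted p 0.125) and the omission of a library of 34, 42 or 72 h (0.0724 to 0.224) among them. Of 19 adaptors and kinases of the cascade 0 were called at 42 or 50 h by limma, beside 2.58% and 6.26% of all genes. At 72 h 3 were called, beside 24% of all genes. Among them were KSR1 (-0.72), a scaffold of the cascade, and MAPK3 (0.57), which encodes ERK1. Both calls were lost without 72 h replicate 1 (adjusted p 0.184 and 0.0682), KSR1 also without 34 h replicate 1 (0.175), and MAPK3 without 34 h replicate 2 (0.137) or 72 h replicate 2 (0.129). Of 11 other ETS factors 3 were lower at 72 h, beside 11.3% of all genes: ETS2, ERG (-1.41) and ELF4 (-0.94). The calls of ERG (adjusted p 0.075 to 0.192) and ELF4 (0.0768 to 0.151) were both lost without any 1 library of 34 or 72 h, which leaves ETS2 of these 3. ETS2 had 24.9 and 32.4 TPM (34 h), 11.6 and 13.5 TPM (42 h) and 8.63 and 9.5 TPM (72 h; -1.12 and -1.55). ETS2 was thus, like SPRY1, already lower at 42 h (limma adjusted p 0.0118), a call lost without 34 h replicate 2 or either 42 h library (0.0527 to 0.0981).

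RefSeq start windows were on hand for 8 of the 10 genes, in 18 windows; ETV4 and ETV5 had none. On either strand, GGAA was found in a window of all 8, and in 92.7% of all windows. The longer ETS motif CCGGAAG, which contains GGAA, was found for SPRY1 alone (8.52% of all windows), before a second start of that gene, 67 bases upstream of it. The TCF/LEF motif CTTTGAT was found for IL17RD alone (2.26% of all windows), 97 bases before a start. The bases after that start were not found in a GENCODE transcript of IL17RD. The GC box GGGCGG was found for 6 of the 8 (42.6% of all windows), and neither the AP-1 motif TGANTCA (6.57%) nor the CRE motif TGACGTCA (1.65%) for any. A gene with several windows was counted if any of them held the motif, so its chance of a match is higher than that of 1 window.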

How the data were processed

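Transcripts of ESI017 cells were measured in 8 libraries, 2 at each of 4 time points, grouped by the time and batch in the labels. The authors deposited TPM values per Ensembl gene, in 1 table with 37951 rows. The submitters' processing notes name Salmon 1.9.0 and GRCh38; the annotation, strand setting and filters are not given in the sources used here. TPM keeps no read number, so no counting error could be given.

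Rows were summed by symbol, 14908 genes reaching 1 TPM in 2 or more libraries were kept, and log2(TPM + 1) was fitted (limma 3.58.1, R 4.3.3) with a mean-variance trend, 1 mean per time point and all 8 libraries (4 residual degrees of freedom, against 2 for a pair of time points alone). Tests are two-sided. An exact permutation test of 2 against 2 libraries cannot go below 0.333 and was not used. The fit was tested on simulated data. Python 3 with pandas and matplotlib made the tables and plots.

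The 10 genes, the pathway and marker lists and the naming rule were chosen with earlier results of these data known. The rule was: all 10 genes; from each list up to 4 called genes with the largest change and up to 3 with the highest mean; and the 3 nearest profiles of each F-test call. Some genes that met it are not reported here. DUSP4 and EGR1 stand beside DUSP6, and FGF8 was named, after their values were seen where the rule does not cover them. The replicate number pairs libraries through the batch label; differences between replicates correlated over genes at 0.0949 to 0.195 among 34, 42 and 50 h and at -0.104 to -0.0445 with 72 h.

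Alternatives were a pseudocount of 0.1, no filter, a mean of at least 5 TPM, TMM and quantile rescaling, removal of mitochondrial genes, no trend, the replicate block, fits of only the compared time points, Ensembl rows apart, and each library left out. Positions are from GENCODE release 29 (GRCh38), promoter windows from RefSeq (GRCh38.p14).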

Additional observations from a re-analysis of the deposited data

How the results depend on the processing

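Of 13 calls of the 10 genes over 5 comparisons, 5 held in all 18 alternatives: SPRY1 at 50 h and 72 h and SPRY4 and ETV4 at 72 h against 34 h, and SPRY4 at 72 h against 50 h. The count at 42 h against 34 h was 0 with a pseudocount of 0.1, no filter, Ensembl rows apart or the time points alone. With the time points alone it was 1 at 50 h against 34 h and 1 at 72 h against 50 h; without the filter it was 2 at 72 h against 50 h and 3 by F-test. With 1 library left out it was 0 to 1 at 42 h, 1 to 2 at 50 h and 3 to 6 at 72 h against 34 h, 0 between 42 and 50 h, 2 to 4 between 50 and 72 h, and 3 to 5 by F-test. The cause was not tested. With the replicate number as a block the counts were 1, 2, 6, 0, 4 and 5, so the pairing changed no call of the 10 genes; of the pathway calls it lost DUSP2 at 50 h (0.0602), while the pathway counts were 8, 10, 33, 0 and 13 in place of 7, 10, 31, 0 and 11, so others were gained.

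Counts of pathway genes with the time points alone were 2 at 42 h and 4 at 50 h against 34 h and 7 at 72 h against 50 h, and with 1 library left out 2 to 7, 5 to 9, 20 to 31, 0 and 6 to 10. Changes of sign came in 26 uncalled values of 7 genes. With 1 library left out these ranged as follows. At 42 h against 34 h the ranges were -0.04 to 0.01 for SPRY2, -0.33 to 0.17 for SPRED1, -0.04 to 0.44 for SPRED2, -0.29 to 0.23 for DUSP6 and -0.08 to 0.31 for ETV5. At 50 h against 34 h they were -0.10 to 0.03 for SPRED1 and -0.22 to 0.25 for DUSP6, and at 72 h -0.10 to 0.37 for SPRED1. At 50 h against 42 h they were -0.20 to 0.29 for SPRED1, -0.21 to 0.30 for DUSP6 and -0.04 to 0.57 for ETV5. At 72 h against 50 h they were -0.11 to 0.02 for SPRY2, -0.07 to 0.41 for SPRED1, -0.28 to 0.04 for SPRED2, -0.14 to 0.27 for IL17RD and -0.29 to 0.18 for ETV1. DUSP6 at 50 h was -0.03 with TMM, -0.05 with quantile normalization and 0.00 without mitochondrial genes. TMM moved the median of all genes by at most -0.06. It moved the share of higher genes among those called from 56.3% to 47.7% (50 h against 34 h), from 53.1% to 43.9% (72 h against 34 h) and between 42 and 50 h from 64.3% to 47.4% (45% with quantile normalization, 52.9% without mitochondrial genes). Depth is unknown, and 2 libraries per time point limit what could be called.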
